A study of Mus musculus with 4 samples.

Results

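Prostanoid synthesis and receptor genes were examined in endothelial cells from mouse hearts. Members were taken by gene symbol from a set of 10: the cyclooxygenases Ptgs1 and Ptgs2, the terminal synthases Ptgis, Ptges, Ptges2, Ptges3, Ptgds and Tbxas1, the breakdown enzyme Hpgd and the receptor Ptger4. All 10 were among the 38087 genes listed, and 9 of them varied between libraries, as did 14470 genes in all. The set was chosen by its log2 values in the 2 Gata4 KO and 2 control libraries. Differences of its members are therefore descriptions and carry no test.

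RNA was sequenced from 2 Gata4 KO and 2 control libraries of cells sorted from cardiac ventricles as positive for eGFP and CD31, the endothelial surface protein PECAM1. Mice of both groups had a C57BL/6 background, a Tie2-CreERT2 transgene, which puts a tamoxifen-activated Cre recombinase under Tie2 regulatory sequence, and a Cre-dependent eGFP reporter in the Rosa locus (R26eGFP). Gata4 KO mice in addition carried LoxP-targeted Gata4, whose recombination tamoxifen induced, while control cells had the recombined reporter alone. All mice ate chow with tamoxifen citrate, at 40 mg per kg of body weight, for 4 weeks from an age of 4 weeks and were used at 8 weeks. Each Gata4 KO library is described with 1 number and each control library with 2 joined by a plus, but the title of control 2 gives 1 number, so the labels do not settle whether it was pooled. If pooling followed these descriptions, it cannot be told apart from genotype. The labels do not state how many animals stand behind a library.

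Prostanoids are short-lived lipid signals made from arachidonic acid that phospholipases free from membranes. A cyclooxygenase turns the acid into prostaglandin H2, and terminal synthases convert that intermediate into prostacyclin, prostaglandin E2, prostaglandin D2 or thromboxane A2, each with its own G protein-coupled receptors. Endothelial cells are known for prostacyclin, which relaxes vessels and keeps platelets from clumping. Platelets are known for thromboxane, which does the opposite. Ptgs1 is expressed steadily in many cells, and Ptgs2 is an immediate early gene whose transcript is induced by growth factors, cytokines and shear stress and is quickly degraded.

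Promoter sequence is shown for both cyclooxygenase genes, whose differences were of unequal size, and for Ptger4, the receptor gene with values in the opposite direction. Each line gives the 250 bases before the start site on the gene's strand, from RefSeq on GRCm38.p6. Capitals mark matches to the motifs named after the sequences.
Ptgs2 (chr1:150099781-150100030, plus strand): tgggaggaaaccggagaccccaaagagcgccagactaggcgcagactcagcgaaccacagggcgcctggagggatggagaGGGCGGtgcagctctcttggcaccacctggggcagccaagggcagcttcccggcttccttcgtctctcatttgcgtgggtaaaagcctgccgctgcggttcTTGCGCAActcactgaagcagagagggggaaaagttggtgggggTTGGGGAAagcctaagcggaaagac
Ptgs1 (chr2:36230176-36230425, plus strand): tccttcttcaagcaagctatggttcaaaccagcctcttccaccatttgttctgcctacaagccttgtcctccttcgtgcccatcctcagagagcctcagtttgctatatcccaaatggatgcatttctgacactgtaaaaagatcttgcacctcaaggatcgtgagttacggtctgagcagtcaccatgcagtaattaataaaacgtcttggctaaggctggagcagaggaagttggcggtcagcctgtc
Ptger4 (chr15:5244188-5244437, minus strand): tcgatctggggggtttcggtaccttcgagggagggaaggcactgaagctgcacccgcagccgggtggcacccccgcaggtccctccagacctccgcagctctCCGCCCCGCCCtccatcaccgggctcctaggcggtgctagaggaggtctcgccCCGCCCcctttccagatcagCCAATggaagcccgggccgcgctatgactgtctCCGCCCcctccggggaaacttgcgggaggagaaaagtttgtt

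Motifs were searched on both strands of the 300-base windows from 250 bases before to 50 bases after the start, which the RefSeq table held for 9 members (not Ptgis) among 32851 promoters. The motifs were the core promoter element TATAAA, the CCAAT box, the GATA site in 4 spellings (AGATAA, or else TGATAA, or else AGATAG, or else TGATAG), the cyclic AMP response element TGACGTCA and its shorter form TGACG, the E-box CACGTG, the NF-kB consensus, the C/EBP pattern TTNNGNAA, the AP-1 pattern TGANTCA, the GC box GGGCGG and the ETS core CCGGAAG. TGACGTCA contains TGACG, so those counts overlap. The Ptgs2 window held 1 GC box 170 bases before the start and C/EBP matches 69 and 25 bases before it. Past the start it held TGACG on the minus strand at position 14 and an E-box at position 17, and these overlap each other. The Ptgs1 window held none of the motifs. The Ptger4 window held 4 GC boxes, between 148 and 42 bases before the start, and 1 CCAAT box. None of the 4 GATA sites was found in the 9 windows, and each occurred in 7.29% to 11.2% of all promoters. For comparison, 40.7% of promoters held the C/EBP pattern, 35.7% a GC box, 20.8% TGACG and 7.15% the E-box. GC content of the printed 250 bases was 61.6% for Ptgs2, 48% for Ptgs1 and 66.8% for Ptger4. A match describes letters and is not a binding site.

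Of the 10 genes, 5 lie on chromosome 2 (mm10, GENCODE M21): Ptgds (25466709 to 25470046), Ptges (30889471 to 30929863), Ptges2 (32395896 to 32405772), Ptgs1 (36230426 to 36252272) and Ptgis (167191805 to 167240604). Ptgs2 lies on chromosome 1 (150100031 to 150108227), Ptger4 on chromosome 15 (5206661 to 5244187), Hpgd on chromosome 8 (56294585 to 56321043), Ptges3 on chromosome 10 (128058954 to 128077272) and Tbxas1 on chromosome 6 (38875404 to 39084585). All are annotated as protein coding. The longest annotated 3′ UTR of Ptgs2, 2445 bases, held 14 copies of ATTTA, the core of AU-rich elements that shorten the life of a transcript. Of the 11809 tested genes with such an annotation, 2.88% held as many. Ptgs1 held 0 copies in 921 bases, Ptgis 0 in 417, Hpgd 4 in 838 and Ptger4 5 in 1233.

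Values below are the authors' deposited log2 values, with the median of a gene's 4 libraries set to 0. Levels cannot be compared between genes, and the 2 middle values of a gene mirror each other around 0 by construction. Sequencing depth is unknown. Libraries shared a value where that value was the lowest of the gene, as a floor before the logarithm would leave, so a fold against a group at that value is given as "at least". Gata4 had values of -0.14 and -0.46 in Gata4 KO libraries, against 0.48 and 0.14 in controls (1.52-fold lower), for the whole gene rather than the deleted part. Xist, of the inactive X chromosome, was at its floor in both controls and at least 63.9-fold higher in the Gata4 KO libraries. The Y-linked genes Ddx3y, Eif2s3y, Uty and Kdm5d were at the floor in both Gata4 KO libraries and above it in both controls. Sex and genotype can therefore not be told apart in any difference below. The endothelial markers Pecam1 and Cdh5 varied and overlapped between groups, with log2 differences of 0.066 and 0.12, though centred values cannot show how strongly they were expressed. By limma with Benjamini-Hochberg adjustment over all genes, 0 genes (0%) passed 0.05 in either direction. At an unadjusted p of 0.05, 399 (2.76%) were higher and 776 (5.36%) lower in Gata4 KO, and the same fit with a mean trend called 5 higher and 22 lower at an adjusted p of 0.05. The mean of a centred gene is no expression level, so a mean trend has no clear meaning here.

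Most prostanoid genes that varied had lower values in Gata4 KO. Both Gata4 KO values lay below both controls in 6 of the 9 (Ptgs2, Ptgis, Ptgds, Hpgd, Tbxas1 and Ptgs1), where 17.3% of all tested genes did so. In 1, Ptger4, they lay above both, as in 15.7% of all tested genes, and in 2 (Ptges2 and Ptges3) the groups overlapped. The median log2 difference of the 9 was -0.39, against -0.01 over all tested genes. Without Gata4 KO 1 it was -0.70, and without the tied gene Tbxas1 -0.71. The members were picked with these values known, so neither count supports a change of the pathway.

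**Figure D1:**
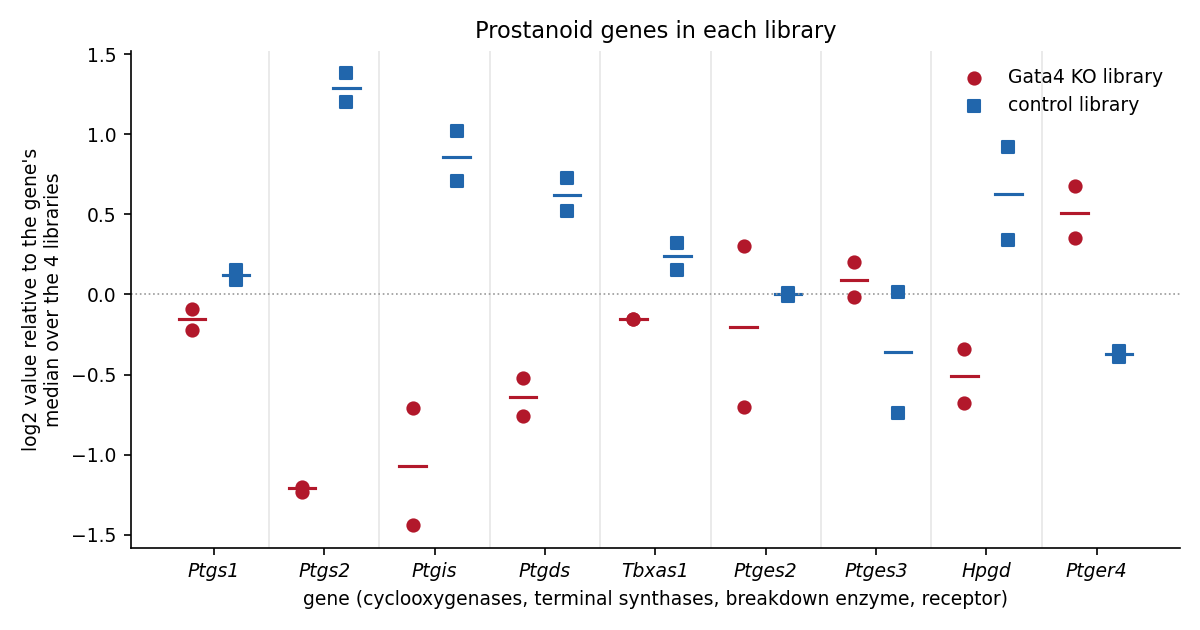
Log2 values with the gene's median at 0 (y axis) for the 9 prostanoid genes that varied (x axis). Circles are the 2 Gata4 KO libraries, squares the 2 control libraries and short lines their means. Ptgs2 has the widest gap between groups, 2.40 between the nearest values, and the groups cross in Ptges2 and Ptges3.

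The cyclooxygenases stood apart from each other. Ptgs2 (ENSMUSG00000032487), the inducible enzyme, had log2 values of -1.20 and -1.23 in Gata4 KO libraries, against 1.38 and 1.20 in control libraries. The nearest values of the groups were 2.40 apart, while libraries of the same group differed by 0.027 in Gata4 KO and 0.18 in control. Means were -1.21 ± 0.019 in Gata4 KO and 1.29 ± 0.13 in control (SD, n = 2 each), a log2 difference of -2.50 (standard error 0.22 from the limma fit) or a 5.66-fold lower value. It ranked 24 from the lowest among the differences of 14470 genes. Ptgs1 (ENSMUSG00000047250), the constitutive enzyme, had values of -0.22 and -0.09 in Gata4 KO libraries, against 0.09 and 0.15 in controls. Its groups did not overlap either, but their nearest values were 0.18 apart and the log2 difference was -0.27 (1.21-fold lower), close to its standard error of 0.22. Nearest to its 4 values by Euclidean distance were Fam108b (0.023), Abca7 (0.043), Ppp6r2 (0.045), Gins2 (0.054) and Homer1 (0.055). Both cyclooxygenase genes thus lay in the same order between groups with differences of very unequal size.

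Ptgs2 belongs by its known regulation to the immediate early genes, and its values ran against theirs. Of 24 immediate early genes that varied, 19 lay above both controls (15.7% of all tested genes did) and 1 (Myc) below (17.3%), with a median log2 difference of 0.74. Their mean value was 0.23 and 0.39 in the Gata4 KO libraries, against -0.48 and -0.29 in controls. The genes whose 4 values lay nearest to those of Ptgs2 by Euclidean distance were Fgf1 (0.193), Igfbp6 (0.249), Abhd1 (0.301), Kcnt2 (0.333) and Rbm15b (0.367), with log2 differences of -2.43, -2.49, -2.42, -2.20 and -2.24. Fgf1 and Rbm15b (ENSMUSG00000074102, since the files give that symbol to another gene ID too) were at the floor in both Gata4 KO libraries, so their differences are at least of that size. Likeness over 4 libraries, of which 2 are in each group, mostly reflects a difference of similar size.

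Among the terminal synthases, those for prostacyclin and prostaglandin D2 had lower values in Gata4 KO. Ptgis (ENSMUSG00000017969), prostacyclin synthase, had log2 values of -0.71 and -1.44 in Gata4 KO libraries, against 1.02 and 0.71 in controls. Both Gata4 KO libraries were below both controls, and their own gap of 0.74 was wider than the 0.32 between controls. Means were -1.07 ± 0.52 in Gata4 KO and 0.86 ± 0.22 in control (SD, n = 2 each), a log2 difference of -1.94 (standard error 0.33), 3.83-fold lower and rank 66 from the lowest. Nearest to its pattern were Htra3 (distance 0.082), Islr (0.249), Itih5 (0.291) and Sulf2 (0.347). Htra3 had -0.73 and -1.39 in Gata4 KO libraries, against 0.97 and 0.73 in controls, so it matched Ptgis library by library.

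Ptgds (ENSMUSG00000015090), the lipocalin-type prostaglandin D2 synthase, had values of -0.76 and -0.52 in Gata4 KO libraries, against 0.52 and 0.73 in controls. The groups were 1.03 apart at their nearest values, against gaps of 0.24 and 0.21 within Gata4 KO and control. Its log2 difference was -1.26 (standard error 0.24), or 2.4-fold lower. Unlike Ptgs2 and Ptgis, Ptgds was highest in control 2 and lowest in Gata4 KO 1.

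Tbxas1 (ENSMUSG00000029925), thromboxane synthase, was tied at its lowest value, -0.15, in both Gata4 KO libraries, against 0.32 and 0.15 in controls. Its highest library thus lay 0.48 above that lowest value on the log2 scale. Gata4 KO libraries lay at least 1.31-fold lower, and the spread within Gata4 KO cannot be seen at the floor. Platelet and macrophage markers are given with the other cell type lists below.

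The 3 enzymes that make prostaglandin E2 showed no common order. Ptges2 (ENSMUSG00000026820), the membrane-associated type 2 enzyme, had values of 0.30 and -0.70 in Gata4 KO libraries, against 0.0079 and -0.0079 in controls. The 2 Gata4 KO libraries lay on either side of both controls, 1.00 apart, so its log2 difference of -0.20 was smaller than its standard error of 0.38, and it was 0.30 without Gata4 KO 2. Ptges3 (ENSMUSG00000071072), the cytosolic enzyme and HSP90 co-chaperone p23, had values of -0.018 and 0.20 in Gata4 KO libraries, against 0.018 and -0.74 in controls. The low value of control 2 set it apart from the other 3 libraries, and the groups overlapped (log2 difference 0.45, standard error 0.33, and 0.08 without control 2). With libraries centred on their medians, its Gata4 KO values lay just above both controls. Ptges (ENSMUSG00000050737), the inducible microsomal enzyme, was listed with the same value in the 4 libraries and was not tested, as were 23617 genes in all.

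Hpgd (ENSMUSG00000031613), which inactivates prostaglandins by oxidising their 15-hydroxyl group, had values of -0.68 and -0.34 in Gata4 KO libraries, against 0.92 and 0.34 in controls. Groups did not overlap, with 0.68 between their nearest values and 0.58 between the controls. The log2 difference was -1.14 (standard error 0.30), 2.21-fold lower. The breakdown enzyme thus had lower values alongside Ptgs2, Ptgis and Ptgds.

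Ptger4 (ENSMUSG00000039942), which encodes the EP4 receptor that signals prostaglandin E2 through cyclic AMP, had the reverse order. Its values were 0.68 and 0.35 in Gata4 KO libraries, against -0.35 and -0.39 in controls. The controls lay 0.047 apart and the nearest values of the groups 0.69 apart. Means were 0.51 ± 0.24 in Gata4 KO and -0.37 ± 0.033 in control (SD, n = 2 each), a log2 difference of 0.88 (standard error 0.24), 1.84-fold higher. It ranked 341 from the highest of all tested differences.

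**Figure D2:**
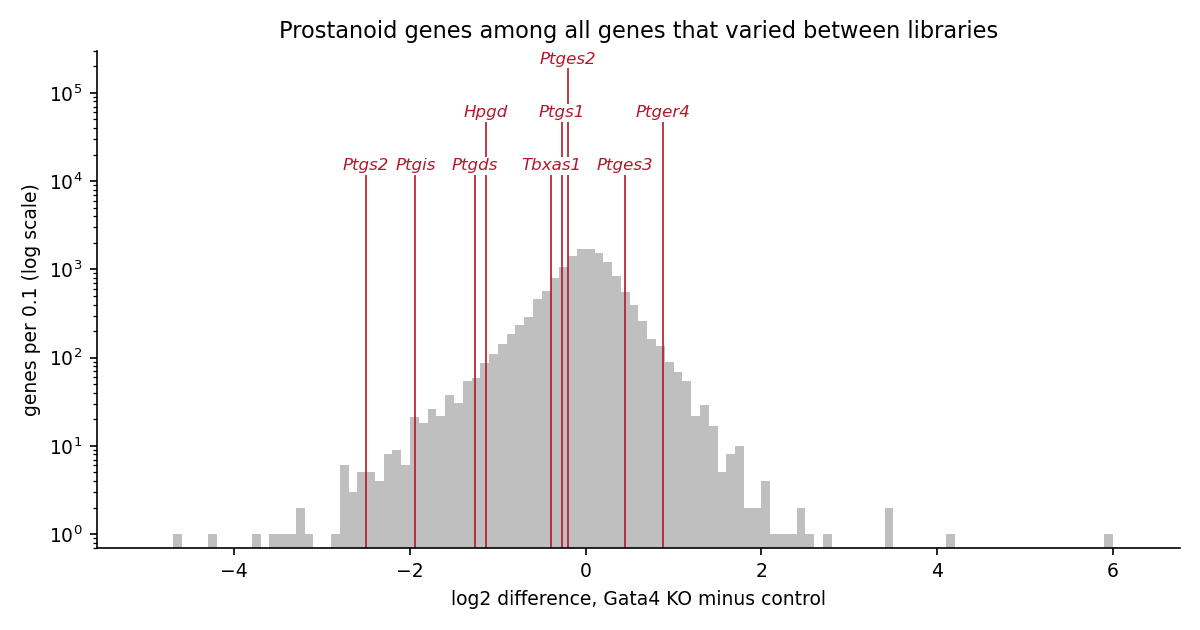
Histogram of the log2 difference, Gata4 KO minus control (x axis), over the 14470 genes that varied, as genes per 0.1 on a log axis (y axis), with red lines at the 9 prostanoid genes. Ptgs2 at -2.50 and Ptgis at -1.94 lie in the sparse left tail, Ptgs1, Ptges2 and Tbxas1 in the dense centre, and Ptger4 at 0.88 on the right.

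Markers of several other cell types had lower values in Gata4 KO. The cells had passed a sort for eGFP and CD31, a gate meant to keep endothelial cells, and centred values cannot show how much RNA of other cells remained. Counts of markers below or above both controls stand against 17.3% and 15.7% of all tested genes. Fibroblast markers lay below both controls in 18 of 18, with list means of -0.36 and -0.93 in Gata4 KO libraries, against 1.21 and 0.35 in controls. Lymphatic endothelial markers were below in 8 of 10 (means -0.45 and -0.89 in Gata4 KO, against 0.63 and 0.59 in controls) and endocardial markers in 7 of 11 (means -0.23 and -0.63 in Gata4 KO, against 0.41 and 0.46 in controls). The endocardial list includes Gata4, the targeted gene itself, among the 7 below. It also shares a gene with the general endothelial list. Macrophage markers were below in 10 of 13 (-0.57 and -0.23 in Gata4 KO, against 0.60 and 0.17 in controls). Of 8 platelet markers, 4 varied and 2 of these were below, with means of -0.83 and -0.31 in Gata4 KO, against 0.43 and 0.52 in controls, and 4 (Itga2b, Gp1bb, Gp6 and Treml1) were the same in the 4 libraries. Cardiomyocyte markers were below in 9 of 16 (-0.19 and -0.67 in Gata4 KO, against 0.37 and 0.42 in controls).

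Smooth muscle and pericyte markers had the same order of means with a smaller difference. They were below in 4 of 13 and above in 2, with means of -0.10 and -0.05 in Gata4 KO, against 0.11 and 0.11 in controls, and a median log2 difference of -0.16. General endothelial markers were below in 1 of 18 and above in 6 (means 0.06 and 0.02 in Gata4 KO, against -0.13 and -0.03 in controls). Of 11 mesothelial and epicardial markers 5 varied, with 0 below and 1 above, and 6 (Msln, Upk1b, Krt8, Krt18, Bnc1 and Tbx18) were the same in the 4 libraries. Mast cell markers varied in 4 of 8 and were below in 1, lymphocyte markers varied in 4 of 10 and were above in 1, and neutrophil markers varied in 6 of 7 and were above in 1.

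Levels are lost by centring, so summed marker levels could not be given, and the part of these cell types in the prostanoid differences was not tested. In bulk RNA, fewer cells of a type and less RNA per cell cannot be told apart.

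**Figure D3:**
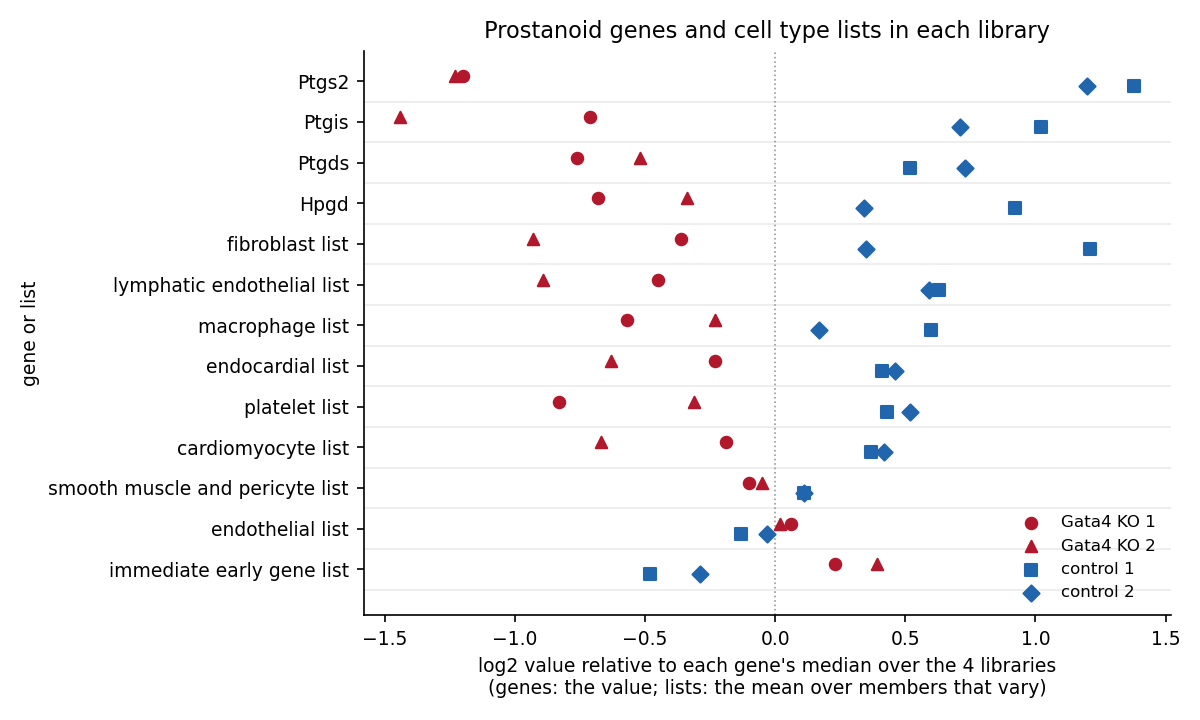
Values of 4 prostanoid genes and means of 9 gene lists (y axis) in each library, as log2 values with the gene's median at 0 (x axis). Circles and triangles are Gata4 KO 1 and 2, squares and diamonds control 1 and 2. Fibroblast means are 1.21 and 0.35 in controls, Ptgs2 values are 1.38 and 1.20 there, and the immediate early means are higher in Gata4 KO.

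Other genes of the eicosanoid pathway were lower, higher or overlapping between groups. Of 88 other listed gene IDs for the steps before, beside and after prostanoid synthesis, 63 varied. Of these, 17 lay below both controls, 9 above and 37 overlapped. Pde4d was counted under each of its IDs, ENSMUSG00000021699 and ENSMUSG00000074661. The median log2 difference of these 63 was -0.07. The shares over all tested genes were 17.3% below and 15.7% above. Without the genes that relay receptor signals, 38 varied, 14 lay below both controls and 5 above, with a median of -0.14. Of the 63, by limma 0 passed an adjusted p of 0.05 over all genes. At an unadjusted p of 0.05 by limma there were 6 lower and 0 higher, where 5.36% and 2.76% of all tested genes were.

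For the other prostanoid receptors, 3 varied. Ptger1, the calcium-coupled EP1 receptor gene, had values of 0.14 and 0.22 in Gata4 KO libraries, against -0.50 and -0.14 in controls, with a log2 difference of 0.51 (limma adjusted p = 0.726). Its direction was that of Ptger4. Ptgir, the prostacyclin receptor gene, and Tbxa2r, the thromboxane receptor gene, overlapped between groups, with log2 differences of 0.19 and 0.06. Ptger2, Ptger3, Ptgfr, Ptgdr and Gpr44, the last encoding a second prostaglandin D2 receptor, were the same in the 4 libraries. The differences of Ptgir and Tbxa2r were smaller than their standard errors of 0.35 and 0.32. Their signs therefore set no common direction for the receptor genes.

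Upstream, genes that release arachidonate or handle its phospholipids mostly overlapped. Of 14 that varied, 2 lay below both controls and 1 above, where 17.3% and 15.7% of all tested genes did. Pla2g2d, a secreted phospholipase gene, was at its lowest value of -0.88 in both Gata4 KO libraries, against 0.88 and 0.90 in controls. It was at least 3.41-fold lower (log2 difference -1.77, standard error 0.21, limma adjusted p = 0.208). Among the limma fits tried it passed 0.05 only with a mean trend (adjusted p = 0.0463), which has no clear meaning for centred values. Its spread within Gata4 KO cannot be seen at the floor. Pla2g7, which encodes the platelet-activating factor acetylhydrolase of macrophages, had a log2 difference of -0.99 (adjusted p = 0.443). Pla2g4a, the cytosolic phospholipase gene that supplies most cyclooxygenase substrate, was above its lowest value in control 1 alone.

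Other reductases and synthases, breakdown enzymes and transporters gave a mixed picture. Akr1b8, an aldo-keto reductase gene, had values of -0.75 and -0.46 in Gata4 KO libraries, against 0.46 and 0.88 in controls, 2.42-fold lower (log2 difference -1.28, limma adjusted p = 0.367). Slco2a1, the transporter gene for prostaglandin uptake before breakdown by Hpgd, had -0.34 and -0.24 in Gata4 KO libraries, against 0.24 and 0.85 in controls. Its log2 difference of -0.83 (adjusted p = 0.557) had the direction of Hpgd, and both control values lay above both Gata4 KO values. Cbr1, a carbonyl reductase gene for prostaglandins, had a log2 difference of 0.51 (adjusted p = 0.829), and Abcc4, an exporter gene, overlapped at -0.01.

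In the leukotriene and lipoxygenase branch, which competes for the same arachidonate, 5 of 9 varying genes lay below both controls and 2 above. Over all tested genes these shares were 17.3% and 15.7%. Both Gata4 KO libraries were at the lowest value in 4 of the 9. Dpep1, the dipeptidase gene that trims leukotriene D4 and is also a fibroblast marker, had values of -0.28 and -1.37 in Gata4 KO libraries, against 1.27 and 0.28 in controls (log2 difference -1.60, limma adjusted p = 0.522). Cysltr1, a cysteinyl leukotriene receptor gene, was at its lowest value in both Gata4 KO libraries and at least 2.07-fold lower (adjusted p = 0.424). Alox12, the platelet-type lipoxygenase gene, and Ggt5, the leukotriene C4 hydrolase gene, had log2 differences of 0.58 and 0.65 (adjusted p = 0.655 and 0.637).

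Genes that relay prostanoid receptor signals had a median log2 difference of 0.00 over 25 gene IDs that varied, with Pde4d counted under each of its IDs. Of the 25, 3 lay below both controls and 4 above, where 17.3% and 15.7% of all tested genes were. Adcy7, an adenylyl cyclase gene, and Pde3a, a cyclic AMP phosphodiesterase gene, had log2 differences of -0.56 and -0.57 (limma adjusted p = 0.738 and 0.693). Gnas, the stimulatory G protein gene through which EP4 and the prostacyclin receptor act, had values between -0.045 and 0.046 in the 4 libraries.

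**Figure D4:**
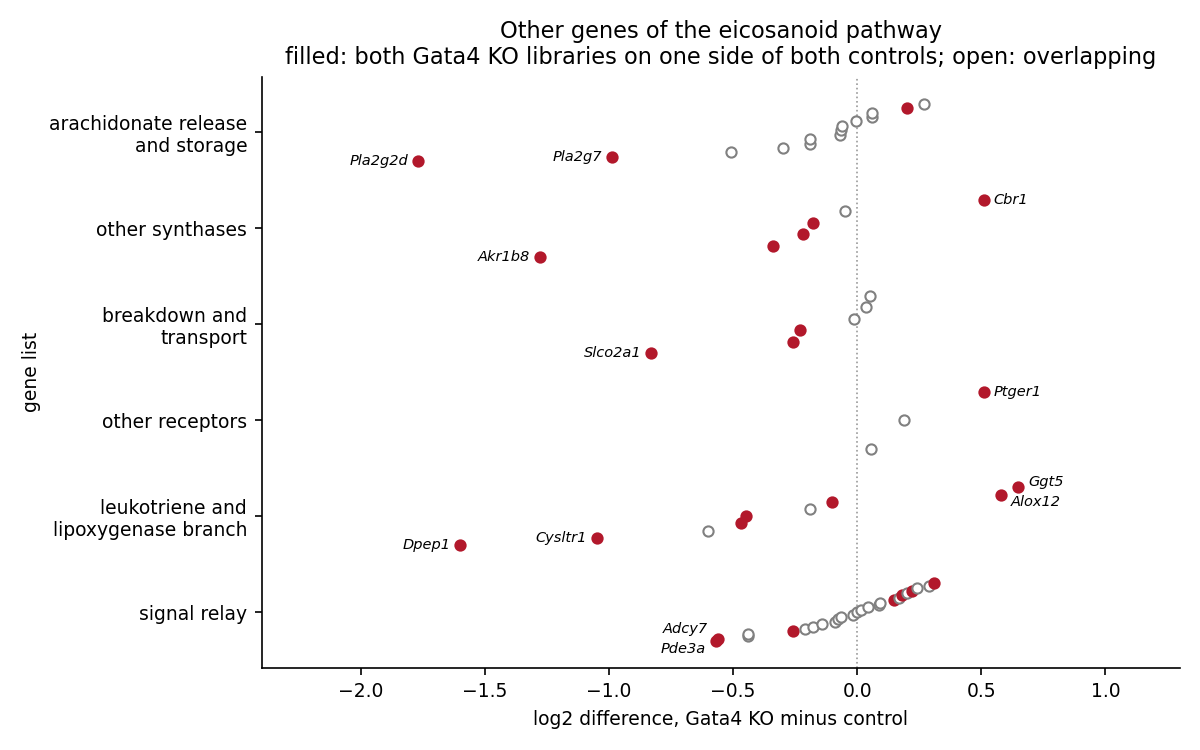
Log2 difference, Gata4 KO minus control (x axis), of 63 other gene IDs of the pathway that varied, by list (y axis). Filled points are genes whose 2 Gata4 KO values lay on one side of both controls, open points overlapped, and named genes differ by at least 0.5. Pla2g2d at -1.77 and Dpep1 at -1.60 lie farthest left, and the signal relay genes gather around 0.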

How the data were processed

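RNA of 4 libraries from sequencing run 2110 was profiled. Both tables that the authors deposited hold log2 values of the 4 libraries, a log2 fold change and a signed fold-change score for each gene, and are split by its sign, per the file headers. Per the submitters' processing notes, mm10 was the build. The sources used here do not give the aligner, the quantification, how libraries were normalized or the unit before the logarithm. Each gene's median over the 4 libraries was 0 (tolerance 1e-05), and ties were counted within 2e-06. The difference of group means equalled the deposited log2 fold change to within 3.0e-07.

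The tables were joined to 38087 genes, and the 14470 that varied were fitted with limma 3.58.1 under R 4.3.3 (lmFit, then eBayes without mean trend, two-sided, Benjamini-Hochberg over all 14470, threshold 0.05, 2 libraries per group). Each p-value rests on how far libraries of a group differ, which may be technical spread. On simulated data in which 200 of 14470 genes changed, the fit recovered 0% of genes planted at 2-fold, 0% at 4-fold and 82.1% at 8-fold. GENCODE M21 matched 36308 identifiers, and RefSeq promoters (GRCm38.p6) matched 9 of 10 members. Members and lists were chosen with earlier results of these data known. Named are all members, every varying prostanoid receptor gene, other pathway genes whose groups do not overlap with an absolute log2 difference of at least 0.5, and the 5 genes nearest in pattern to Ptgs2, Ptgs1 and Ptgis. For Ptgis, 1 of them is not reported here. Genes further named (Pla2g4a, Abcc4, Gnas, Myc) were chosen after their values were seen, and Pde4d is named only for its IDs. Alternatives were library centring, leaving out tied genes or each library, a mean trend and a robust prior.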

Additional observations from a re-analysis of the deposited data

How the results depend on the processing

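Of 53 values of the 9 varying members under an alternative, 52 kept their direction. Ptges2 was the exception, with a log2 difference of 0.30 without Gata4 KO replicate 2. Where a member's groups did not overlap, leaving out 1 library could not reverse its direction. Leaving out tied genes changes no value of another gene. The count of kept directions is therefore no test of how stable the differences are. Ptgs2 ranged from -2.59 to -2.41, Ptgis from -2.31 to -1.57, Ptgds from -1.38 to -1.14, Hpgd from -1.43 to -0.85 and Ptger4 from 0.71 to 1.05. The median difference of the members was -0.71 without genes tied at the lowest value, which drops Tbxas1, and between -0.70 and -0.31 with 1 library left out. Members above both controls numbered 2 with libraries centred on their median and 1 to 2 with 1 library left out. Members below both controls numbered 6 with that centring and 6 to 7 with 1 library left out. For the other pathway genes these leave-one-out counts were 23 to 28 below and 16 to 19 above, where fewer libraries make an overlap rarer. The share over all tested genes was not counted with 1 library left out. The 17.3% and 15.7% found with 4 libraries do not apply to these counts. Genes called over all genes tested numbered 5 higher and 22 lower with a mean trend and 2 and 5 with a robust prior. They numbered 3 and 5 with libraries centred on their median. Without tied genes, 9 and 42 of 11894 were called. The lowest limma adjusted p was then 0.00115, against 0.0582 in the main fit. At an unadjusted p there were 393 and 716 without tied genes, against 399 and 776 in the main fit. The lack of calls in the main fit thus depended on keeping tied genes in it. No paired analysis was possible because replicate numbers follow the order of deposition and pair no libraries. With 2 libraries per group and unknown depth, the fit could not recover 4-fold differences in simulation, so a gene that missed the threshold is not shown to be alike in both groups.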
